A study of Arabidopsis thaliana with 12 samples.

Results

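The CYP71A and CYP71B cytochromes P450 of Arabidopsis thaliana were taken as every gene of the deposited expression table with a gene name that begins with CYP71A or CYP71B followed by a number, together with PAD3 (AT3G26830), which is CYP71B15. The rule found 50 of the 32833 genes of the table, 16 of them CYP71A and 34 CYP71B. RNA was sequenced from leaves of Col-0, the wild-type reference accession. Plants 3.5 to 4 weeks old had been grown at 60% relative humidity, 22 °C and 12 h of light followed by 12 h of dark. They were then kept for 1 h at 40 to 45% (low), 55 to 60% (moderate) or 95% (high) relative humidity. Each of the 3 conditions had 4 libraries labelled as biological replicates. Single plants and pools are not distinguished in the labels, so a p-value here measures the spread between these libraries. Where each condition had its own chamber, chamber and humidity cannot be told apart.

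Cytochromes P450 are heme enzymes of the endoplasmic reticulum that insert an oxygen atom into small molecules, with electrons supplied by an NADPH-dependent reductase. CYP71 is among the largest plant families of these enzymes and lies mostly in specialised metabolism. Its best-known Arabidopsis members make defence compounds from tryptophan. After CYP79B2 and CYP79B3, of another family, form indole-3-acetaldoxime, CYP71A12 and CYP71A13 turn this into indole-3-acetonitrile, and CYP71B15 (PAD3) closes the ring of camalexin, the main phytoalexin of the species. CYP71A18 is a close homolog of CYP71A12 and CYP71A13, CYP71A27 acts in camalexin synthesis in roots, and CYP71B6 metabolises indole-3-acetonitrile. CYP71A16 oxidises marneral, a triterpenoid, and CYP71B31 oxidises the floral monoterpenol linalool. For most other members no role is stated here.

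The part of a P450 that holds the heme iron is a short loop around 1 cysteine. Its 30 coding bases, read from the RefSeq TAIR10.1 coding sequences by the amino-acid pattern of the loop, were found in 47 of the 50 members and in 42 different versions. They are shown for 8 members on which the results turn, with the cysteine codon in capitals.
CYP71B15: tttggatctggtaggagaataTGTccaggg
CYP71B6: tttgggagtggacgcagaggtTGTcccgca
CYP71B26: tttgggagtggtaggagaattTGTcctgga
CYP71B11: tttggtagcggaaggagaatgTGCcctggt
CYP71B12: tttggtagcggaaggagaataTGCcctggt
CYP71B13: tttggtagcggaaggagaataTGCcctggt
CYP71B19: tttgggtccggtcgaaggataTGTcccggg
CYP71B20: tttgggtccggtcgaaggataTGTcccggg
CYP71B12 and CYP71B13 had the same 30 bases, as did CYP71B19 and CYP71B20. Over the whole coding sequence, identity was 96.2% between CYP71B19 and CYP71B20, 92.6% between CYP71B11 and CYP71B12, 87.9% between CYP71B12 and CYP71B13, and 86.9% between CYP71B11 and CYP71B13. CYP71A21 and CYP71A22 were 91.4% identical. The nearest relative of CYP71B26 was CYP71B34 at 80.9%, while CYP71B6 had none closer than 60.5%. Reads of the closest pairs can be shared between them in the authors' counting, so the separate levels of members at 90% identity or above, 6 of those tested, are uncertain.

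Expression was given as TPM, the share of transcripts that a gene takes, a unit scaled to gene length and to the library's total. Read depth was not given in the sources used here. Between 20691 and 20967 genes were above 0 in a library. The 4 leaf markers (Rubisco small subunits, Rubisco activase and a light-harvesting protein) together took 6.19% to 6.61% of TPM at moderate, 7.29% to 7.93% at high and 6.86% to 8.81% at low humidity, a shift between conditions whose part in the results below was not tested. The 4 did not move alike. Against moderate humidity, the light-harvesting gene LHCB1.3 and the Rubisco gene RBCS3B rose at high humidity (log2 differences 0.48 and 0.45, limma adjusted p = 0.0013 and 0.0044). RBCS1A and the activase gene RCA did not pass (0.05 and 0.006, limma adjusted p = 0.58 and 0.96). At low humidity only LHCB1.3 passed (0.75, limma adjusted p = 0.0055). The 4 root markers summed to 31.8 to 44.6 TPM at moderate, 19.2 to 32.5 TPM at high and 26.3 to 31.2 TPM at low humidity, nearly all of it SCR (SCARECROW), which is also expressed in leaves, while CASP1 was listed at 0 in every library. The 3 flower markers summed to 1.85 to 3.76 TPM at moderate, 0.42 to 1.38 TPM at high and 1.42 to 2.08 TPM at low humidity, mostly AG (AGAMOUS). Both moved with the members between high and moderate humidity: SCR fell (log2 difference -0.57, limma adjusted p = 0.0078, and 0.14 after scaling), as did AG (-1.02, 0.0013, and 0.0048 after scaling). Their part in the results was not tested either. In leaf RNA, fewer cells of a type and less RNA per cell cannot be told apart.

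Of the 50 members, 24 reached 1 TPM in at least 4 libraries and were tested, 4 of them CYP71A and 20 CYP71B. Another 16 were listed at 0 in all 12 libraries and 10 were above 0 somewhere without passing the filter. Of all genes 27.8% were listed at 0 throughout, and of the 181 other genes named as P450s 24.3%. The tested members ran from a mean of 0.938 TPM (CYP71A24) to 95.9 TPM (CYP71B2) over the 12 libraries, with a median of 20.2 TPM. Over all 17368 tested genes the median was 11.4 TPM. The 16 listed at 0 were CYP71A15, CYP71A16, CYP71A18, CYP71A20, CYP71A26, CYP71B8, CYP71B9, CYP71B14, CYP71B16, CYP71B17, CYP71B21, CYP71B25, CYP71B30P, CYP71B31, CYP71B32 and CYP71B38. The 10 below the filter were CYP71A12, CYP71A13, CYP71A14, CYP71A19, CYP71A23, CYP71A27, CYP71A28, CYP71B10, CYP71B15 and CYP71B37. The 5 highest members were CYP71B2, CYP71B7, CYP71B28, CYP71B26 and CYP71B13, all CYP71B.

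Of the members with a role in camalexin synthesis, and their homolog CYP71A18, 0 passed the filter in these leaves. CYP71A18 was listed at 0 throughout, CYP71A12 did not exceed 0.30 TPM, CYP71A13 did not exceed 0.54 TPM, and CYP71A27 lay between 0.07 and 0.35 TPM. CYP71B15 (AT3G26830, chr3:9887917-9889791, TAIR10.1) was at 1.35, 0.53, 0.27 and 0.43 TPM in the low, 0.08, 2.22, 0.11 and 0.81 TPM in the moderate and 0.16, 0, 0.08 and 0.40 TPM in the high humidity libraries. Its highest value, in moderate replicate 2, was the highest of any member below the filter, and the 3 conditions overlapped. In a fit without the filter, CYP71B15 did not pass between high and moderate humidity (log2 difference -0.50, with an SE of 0.32, limma adjusted p = 0.265). CYP71A16 and CYP71B31 were listed at 0 in all 12 libraries.

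At 1 h of high humidity most tested members stood lower than at moderate humidity: 15 fell, 2 rose and 7 of 24 did not pass. Changes are differences of mean log2(TPM + 1), called at an adjusted p of 0.05 by limma with Benjamini-Hochberg adjustment over all 17368 tested genes. The members called made up 70.8%, against 45.6% of all tested genes, of which 34.2% were lower and 11.4% higher. The members' median log2 difference was -0.63, against -0.22 over all tested genes. Of the 77 other named P450 genes tested, 38 fell and 5 rose (55.8%), with a median of -0.43. In 16 of 24 members all 4 high humidity libraries lay below all 4 moderate ones, as they did in 34.9% of all tested genes. The TPM of all 50 members summed to 681, 801, 813 and 802 in the moderate and to 425, 527, 459 and 410 in the high humidity libraries.

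Because the TPM unit fixes each library's total, the fit was repeated after median-of-ratios scaling, which sets the typical gene level. This moved the median of all genes from -0.22 to -0.016 and turned their split from 1981 higher and 5938 lower to 3213 higher and 2604 lower. Among the members it left 2 higher and 13 lower, with a median of -0.43, where 33.5% of all genes passed, 18.5% higher and 15.0% lower. CYP71B20 and CYP71B35 lost their call under it (adjusted p 0.066 and 0.12).

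**Figure D1:**
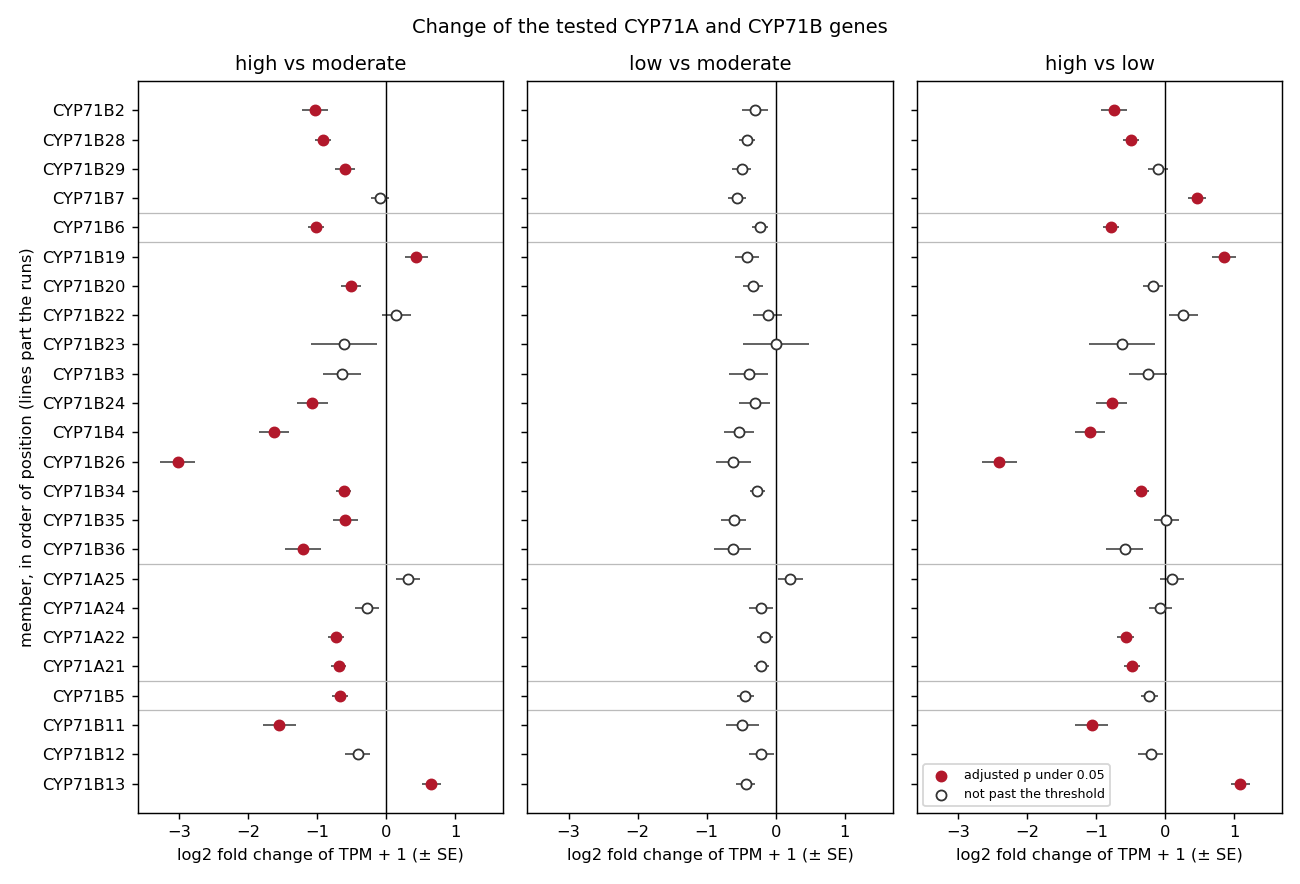
Difference in mean log2(TPM + 1) with its standard error (horizontal axis, log2 units) for the 24 tested members in order of position (vertical axis, lines part the runs of neighbours), in panels that set high against moderate humidity, low against moderate humidity, and high humidity against low, with filled points past an adjusted p of 0.05. CYP71B26 lies farthest to the left at -3.02 and -2.40 in the panels of high humidity, CYP71B13 lies to the right there at 0.66 and 1.09, and no point is filled in the panel of low against moderate.

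The strongest fall was in CYP71B26 (AT3G26290, chr3:9632608-9634822, TAIR10.1), whose substrate is not stated here. Its level was 67.02, 70.2, 104 and 95.9 TPM in the 4 moderate, 71.7, 56.7, 49.3 and 41.3 TPM in the 4 low and 5.58, 14.7, 10.5 and 8.56 TPM in the 4 high humidity libraries. Every high humidity library lay below every library of the other conditions. The mean was 8.57-fold lower at high than at moderate humidity, from 84.3 ± 18.5 to 9.85 ± 3.83 TPM (SD, n = 4). The log2 difference was -3.02 (SE of 0.25, limma adjusted p = 3.6e-06), and -2.79 after scaling.

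CYP71B4 (AT3G26280, chr3:9630128-9632145) and CYP71B11 (AT5G25120, chr5:8661970-8664681) followed. CYP71B4 read 15.1, 23.6, 22.95 and 20.9 TPM at moderate and 4.45, 8.65, 6.53 and 4.83 TPM at high humidity, with no overlap, a mean 3.38-fold lower (log2 difference -1.62 with an SE of 0.22, limma adjusted p = 1.0e-04). CYP71B11 read 30.1, 24.8, 38.5 and 49.96 TPM at moderate and 7.51, 16.1, 13.6 and 9.39 TPM at high humidity, again with no overlap, and was 3.07-fold lower (log2 difference -1.55 with an SE of 0.24, limma adjusted p = 3.2e-04). In both genes high replicate 2 was the highest of its condition.

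CYP71B6 (AT2G24180, chr2:10281718-10283735), which acts on indole-3-acetonitrile, was the only tested member with a role in tryptophan-derived metabolism given above. It stood at 42.8, 37.6, 45.3 and 44.2 TPM in the moderate, 37.1, 36.6, 35.5 and 34.95 TPM in the low and 16.7, 26.5, 20.8 and 18.8 TPM in the high humidity libraries. The high humidity libraries did not overlap those of either other condition. The mean was 2.05-fold lower than at moderate humidity (log2 difference -1.02 with an SE of 0.12, limma adjusted p = 2.9e-05).

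CYP71B2, the member of highest mean level, fell as well. It was at 108, 158, 120.4 and 112 TPM in the moderate and at 57.5, 71.8, 54.5 and 55.4 TPM in the high humidity libraries (log2 difference -1.04 with an SE of 0.19, limma adjusted p = 9.6e-04). CYP71B28, from the same group of neighbours on chromosome 1, went from 69.6, 74.4, 82.4 and 77.2 to 33.9, 48.4, 41.7 and 36.3 TPM (log2 difference -0.91 with an SE of 0.12, limma adjusted p = 5.5e-05). Neither gene had overlapping libraries. CYP71B7, which is also in that group, read 68.4, 80.9, 83.4 and 76.7 TPM at moderate and 76.8, 79.5, 67.5 and 66.1 TPM at high humidity, and did not pass (log2 difference -0.09, with an SE of 0.13, limma adjusted p = 0.58). Its libraries overlapped between the conditions, and its difference turned positive, at 0.14, after scaling.

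CYP71B36 and CYP71B24 fell too. CYP71B36 was at 6.86, 10.2, 10.14 and 16.6 TPM in the moderate and 2.81, 5.18, 4.50 and 3.66 TPM in the high humidity libraries (log2 difference -1.21 with an SE of 0.27, limma adjusted p = 0.0035), and CYP71B24 was at 22.6, 38.1, 23.8 and 23.7 TPM in the moderate and 12.1, 15.97, 9.93 and 10.8 TPM in the high humidity libraries (log2 difference -1.07 with an SE of 0.23, limma adjusted p = 0.0025). Both were without overlap, and in CYP71B24 moderate replicate 2 stood above the other moderate libraries. Of the CYP71A genes, CYP71A22 read 37.6, 34.5, 37.1 and 36.3 TPM at moderate and 16.6, 26.5, 23.7 and 20.8 TPM at high humidity (log2 difference -0.73 with an SE of 0.12, limma adjusted p = 4.6e-04). CYP71A21 read 30.8, 24.7, 33.6 and 30.2 TPM at moderate and 16.8, 19.98, 19.9 and 15.8 TPM at high humidity (log2 difference -0.69 with an SE of 0.11, limma adjusted p = 3.8e-04). These neighbours were the CYP71A genes that passed, and each was lower in all 4 high humidity libraries. At 91.4% identity in coding sequence, their separate levels are uncertain. The other 5 that fell, named here after their values were seen, were CYP71B5, CYP71B34, CYP71B29, CYP71B35 and CYP71B20, with log2 differences from -0.67 to -0.51. CYP71B35 lost its call in 5 alternatives.

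CYP71B13 (AT5G25140, chr5:8672316-8674749) rose. It was at 37.5, 36.5, 40.7 and 46.4 TPM in the moderate, 40.7, 28.7, 24.00 and 26.5 TPM in the low and 65.2, 66.7, 68.4 and 55.7 TPM in the high humidity libraries. All 4 high humidity libraries lay above all others. Its mean rose 1.59-fold over moderate humidity (log2 difference 0.66 with an SE of 0.14, limma adjusted p = 0.0028), and its log2 difference was 0.89 after scaling. CYP71B19 was near the filter, at 1.35, 0.89, 0.94 and 0.86 TPM at moderate and 2.17, 2.02, 1.60 and 1.17 TPM at high humidity, and the conditions overlapped through moderate replicate 1. Its rise passed narrowly (log2 difference 0.44 with an SE of 0.17, limma adjusted p = 0.049) and was lost in 11 of the 22 alternatives, with adjusted p up to 0.134.

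**Figure D2:**
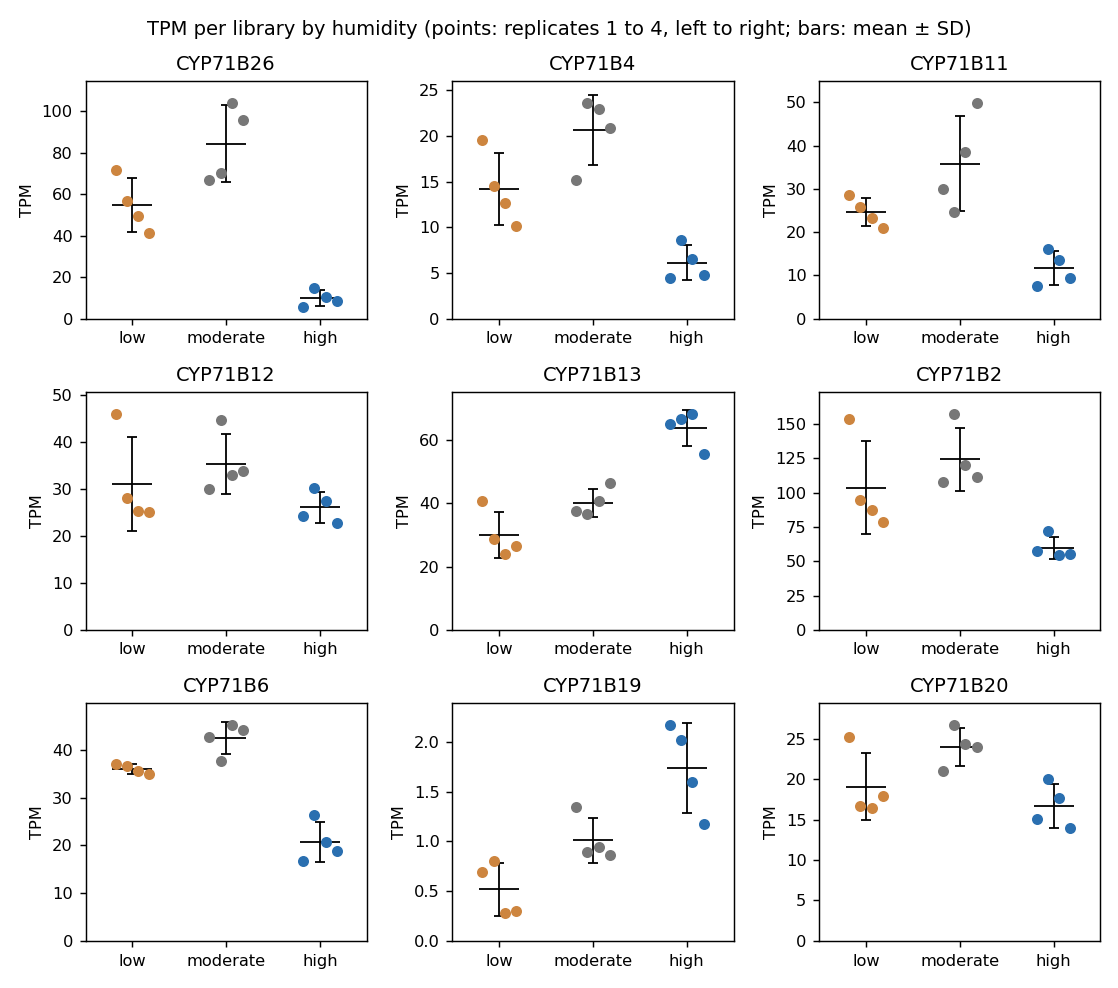
TPM in each of the 12 libraries (points, replicates 1 to 4 from left to right) with the mean ± SD of each condition (bars), for 9 members named in the text, by humidity condition on the horizontal axis and with a separate vertical axis from 0 for each gene. The high humidity points of CYP71B26 all lie at or below 14.7 TPM while its other points lie at or above 41.3 TPM, and those of CYP71B13 all lie at or above 55.7 TPM.

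The members are clustered in the genome. Taking starts at most 30 kb apart as 1 run, 9 runs of at least 2 genes held 42 of the 50, and 8 stood alone. The longest run, on chromosome 3 from CYP71B16 to CYP71B37, held 16 members over 83.0 kb. This run depended on the limit: CYP71B24 and CYP71B25 within it start at 9597941 and 9627562, just under 30 kb apart. Of its 11 tested members 7 fell at high against moderate humidity, 1 rose (CYP71B19) and 3 did not pass, where 34.2% of all tested genes fell and 11.4% rose, and a further 4 of its genes were listed at 0. The chromosome 1 run from CYP71B2 to CYP71B7 held 4 tested members, of which 3 fell. In the run of 6 from CYP71A26 to CYP71A21 on chromosome 3, 2 of the 4 tested genes fell.

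The run from CYP71B11 to CYP71B14 on chromosome 5 held neighbours that moved in opposite directions. CYP71B11 fell and CYP71B13 rose, as given above. CYP71B12, which lies between them, read 29.99, 44.6, 32.9 and 33.8 TPM at moderate and 24.2, 30.1, 27.3 and 22.8 TPM at high humidity and did not pass (log2 difference -0.41, with an SE of 0.18, limma adjusted p = 0.077). CYP71B14 was listed at 0 throughout. The ratio of CYP71B13 to CYP71B11 within a library, which no scaling of the library changes, was 1.42, 1.12, 1.03 and 1.26 in the low, 1.25, 1.48, 1.06 and 0.928 in the moderate and 8.68, 4.14, 5.02 and 5.93 in the high humidity libraries. The high humidity ratios were thus all above the others, in a pair picked after its values were seen. For CYP71B19 and CYP71B20, the pair of highest identity, the ratio was 0.0642, 0.0333, 0.0387 and 0.0359 at moderate and 0.144, 0.101, 0.0905 and 0.0839 at high humidity, likewise with no overlap, but the rise of CYP71B19 itself was the narrow call given above. At 96.2% identity in coding sequence, the separate levels of this pair are uncertain, as are those of CYP71B11 and CYP71B12 at 92.6%.

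The 200 bases before the annotated start are shown for the related neighbours that differed in their change, and for CYP71B26, which fell most. Positions are in TAIR10.1, sequences come from RefSeq and run 5′ to 3′ on the gene's strand, and capitals mark matches on either strand to ACGTG (the core of abscisic acid response elements), TTGAC (the core bound by WRKY factors), CGCGT (bound by CAMTA, the calmodulin-binding transcription activators) and CAATNATTG (bound by homeodomain-leucine zipper factors). The windows are chr5:8661770-8661969, plus strand, for CYP71B11, chr5:8668032-8668231, plus strand, for CYP71B12, chr5:8672116-8672315, plus strand, for CYP71B13, chr3:9575216-9575415, minus strand, for CYP71B19, chr3:9580114-9580313, minus strand, for CYP71B20, and chr3:9634823-9635022, minus strand, for CYP71B26. None overlapped another annotated gene.
CYP71B11: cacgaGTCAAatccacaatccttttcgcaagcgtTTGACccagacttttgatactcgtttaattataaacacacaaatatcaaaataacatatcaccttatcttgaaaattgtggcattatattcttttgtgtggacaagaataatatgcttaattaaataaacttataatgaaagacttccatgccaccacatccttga
CYP71B12: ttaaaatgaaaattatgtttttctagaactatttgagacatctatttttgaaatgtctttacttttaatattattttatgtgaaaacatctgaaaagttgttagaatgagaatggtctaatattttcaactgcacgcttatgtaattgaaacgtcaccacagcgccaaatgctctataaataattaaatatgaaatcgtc
CYP71B13: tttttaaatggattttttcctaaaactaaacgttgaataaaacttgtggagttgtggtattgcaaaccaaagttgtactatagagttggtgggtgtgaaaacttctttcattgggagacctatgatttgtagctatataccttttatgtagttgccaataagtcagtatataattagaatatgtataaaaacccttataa
CYP71B19: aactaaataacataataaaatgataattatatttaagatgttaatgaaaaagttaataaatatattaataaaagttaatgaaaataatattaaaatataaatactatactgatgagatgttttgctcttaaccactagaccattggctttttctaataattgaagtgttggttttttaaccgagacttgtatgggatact
CYP71B20: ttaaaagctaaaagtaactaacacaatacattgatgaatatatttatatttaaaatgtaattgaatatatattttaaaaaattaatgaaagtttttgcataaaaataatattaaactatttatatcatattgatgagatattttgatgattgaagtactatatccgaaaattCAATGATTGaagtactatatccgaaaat
CYP71B26: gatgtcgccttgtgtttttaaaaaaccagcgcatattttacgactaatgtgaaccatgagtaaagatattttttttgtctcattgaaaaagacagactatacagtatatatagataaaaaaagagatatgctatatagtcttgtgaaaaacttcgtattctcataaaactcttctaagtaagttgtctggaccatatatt
Identity over these bases was 49.5% between CYP71B11 and CYP71B13, 49.5% between CYP71B11 and CYP71B12, and 53.0% between CYP71B12 and CYP71B13. The median over all 276 pairs of tested members was 51.0%. CYP71B19 and CYP71B20 were at 65.5%, the highest of any pair. CYP71B11 held 2 matches to TTGAC and CYP71B20 held CAATNATTG, while the other 4 windows held none of these letters. Among the 24 tested members, 13 held TTGAC, against 38.7% of 27444 promoters of the same length, and 7 held ACGTG, against 19.8%. CAATNATTG was in 2, against 0.8%, and CGCGT in 0, against 5.9%. A window counted once however many matches it held, overlapping ones included, and a match describes the window only.

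Against low humidity, the high humidity libraries gave 10 members lower and 3 higher of 24. This made 54.2%, where 23.7% of all tested genes passed, 11.3% lower and 12.4% higher. The members' median log2 difference was -0.30, against -0.058 over all genes, and the counts were again 10 and 3 after scaling, where 26.6% of all genes passed, 15.0% higher and 11.6% lower. Of the other named P450 genes 21 fell and 5 rose of 77. Both comparisons use the same high humidity libraries, so they are not independent of each other.

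CYP71B26 again fell most (log2 difference -2.40 with an SE of 0.25, limma adjusted p = 2.1e-05), a mean 5.56-fold lower than at low humidity. CYP71B4 was at 19.5, 14.5, 12.7 and 10.09 TPM and CYP71B11 at 28.7, 25.8, 23.3 and 21.00 TPM in the low humidity libraries, in both cases above every high humidity library, and their log2 differences were -1.10 (SE of 0.22, limma adjusted p = 0.0022) and -1.07 (SE of 0.24, limma adjusted p = 0.0053). CYP71B6 differed by -0.79 (SE of 0.12, limma adjusted p = 2.5e-04). CYP71B2 was at 154, 95.1, 87.6 and 78.4 TPM in the low humidity libraries and differed by -0.74 (limma adjusted p = 0.011). The others that fell were CYP71A22 (log2 difference -0.57), CYP71B28 (-0.50), CYP71A21 (-0.48), CYP71B24 (-0.77) and CYP71B34 (-0.35). CYP71B24 lost its call in 3 alternatives and CYP71B34 in 8.

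The 3 that rose were CYP71B13, CYP71B19 and CYP71B7. CYP71B13 was 2.13-fold higher than at low humidity (log2 difference 1.09 with an SE of 0.14, limma adjusted p = 7.4e-05). CYP71B19 was at 0.69, 0.80, 0.28 and 0.30 TPM in the low humidity libraries, all below its high humidity libraries (log2 difference 0.85 with an SE of 0.17, limma adjusted p = 0.0021). CYP71B7 read 69.3, 49.1, 50.9 and 42.9 TPM at low humidity, where replicate 1 overlapped the high humidity libraries (log2 difference 0.46 with an SE of 0.13, limma adjusted p = 0.02), and its call was lost in 4 alternatives. The ratio of CYP71B7 to its neighbour CYP71B28 was 1.05, 0.886, 1.00 and 0.774 in the low, 0.982, 1.09, 1.01 and 0.993 in the moderate and 2.26, 1.65, 1.62 and 1.82 in the high humidity libraries. The high humidity ratios were above all others, in a pair again chosen after its values were seen.

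Between low and moderate humidity 0 of 24 members passed in limma, where 0.674% of all tested genes did, and 12 had an unadjusted p under 0.05, as did 5077 of the 17368 tested genes. The difference was negative in 22 of 24 members, with a median of -0.36, as it was in 13770 of the 17368 tested genes, whose median was -0.18. The lowest adjusted p values were those of CYP71B7 (log2 difference -0.55, adjusted p = 0.063), CYP71B5 (-0.44, 0.076) and CYP71B28 (-0.41, 0.077), named here after their values were seen. After scaling 0 members passed as well, where 0.852% of all genes did, and the members' median was -0.18 against -0.007. Over all genes the split was 77 higher and 40 lower as deposited and 140 higher and 8 lower after scaling. The count of 0 rested on low replicate 1. With that library left out, 12 members passed, all lower at low humidity, while 32.3% of all genes passed, 30.0% as lower. With that library left out and scaling applied, CYP71B7 alone passed, as lower, and 4.16% of all genes did, 0.570% as lower. With moderate replicate 2 left out as well as low replicate 1, and no scaling, 9 members passed, all lower, where 24.2% of all genes did, 22.2% as lower.

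Low replicate 1 stood apart from the other low humidity libraries in most members. It held the highest value of its condition for 20 of the 24 tested members, where it did so for 62.9% of all tested genes, and the members there lay a median of 0.40 log2 units above their condition's mean, against 0.18 over all tested genes. High replicate 2 was the highest of its condition for 16 of 24 members, against 28.9% of all tested genes. At moderate humidity replicate 1 was the lowest for 13 of 24 members, against 34.5% of all tested genes. With low replicate 1 and moderate replicate 2 left out together, 18 members passed between high and moderate humidity, 1 higher and 17 lower, where 47.4% of all genes passed, 12.4% higher and 35.0% lower.

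**Figure D3:**
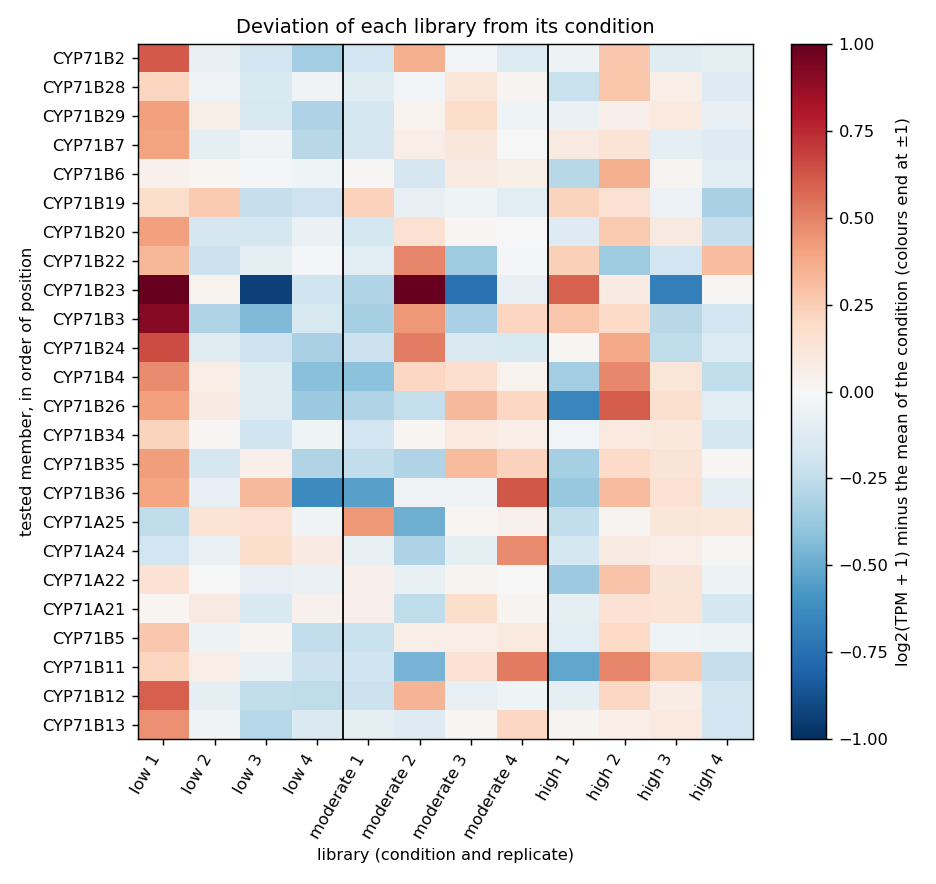
Heatmap of log2(TPM + 1) minus the mean of the library's own condition (colour, log2 units, with values beyond 1 in either direction drawn in the end colour) for the 24 tested members (vertical axis, in order of position) in each of the 12 libraries (horizontal axis). The column of low replicate 1 is mostly red, above its condition's mean, with a median of 0.40.

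CYP71B23 showed 2 libraries apart. It was at 14.3, 6.33, 2.75 and 5.25 TPM in the low, 4.79, 14.6, 3.23 and 5.71 TPM in the moderate and 5.98, 3.92, 1.88 and 3.68 TPM in the high humidity libraries, with low replicate 1 and moderate replicate 2 above all others. WRKY33, a transcription factor that activates camalexin genes, was highest in the same 2 libraries, at 43.5, 13.7, 9.31 and 10.6 TPM in the low and 10.9, 45.9, 12.5 and 17.4 TPM in the moderate libraries. GSTF6, a glutathione S-transferase of the camalexin pathway, was at 68.2, 31.7, 19.2 and 24.7 TPM in the low and 21.4, 78.4, 14.9 and 12.98 TPM in the moderate libraries. CYP71B15 (PAD3) had its condition's highest value in each of these libraries, as given above. Not every gene of the pathway did so: CYP79B2, CYP79B3 and GGP1, a gamma-glutamyl peptidase, were the lowest of their condition in moderate replicate 2 and second lowest in low replicate 1. CYP71B23, GSTF6 and GGP1 are named here after their values were seen. Low replicate 1 held its condition's highest value in 20 of 24 tested members and 62.9% of all tested genes. Moderate replicate 2 did so in 8 of 24 members and 39.1% of all tested genes. CYP71B2, CYP71B12 and CYP71B24 were among other members highest in both libraries. The part of such variation between libraries in the comparisons was not tested.

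The other genes of the pathways around these P450s were taken as lists of 47 genes, of which 41 were tested. Between high and moderate humidity 2 rose and 9 fell (26.8%, against the 45.6% of all tested genes). After scaling 4 rose and 1 fell, where 18.5% of all genes rose and 15.0% fell. Their median log2 difference was -0.37 as deposited, against -0.22 over all tested genes. In 16 of 41 all high humidity libraries lay below all moderate ones, as in 34.9% of all tested genes. With only the libraries of these 2 conditions, 3 rose and 18 fell, where 8533 of 17368 genes passed. Without moderate replicate 1, 2 rose and 5 fell, where 1827 of the 17368 tested genes rose and 5691 fell. In tryptophan synthesis, which supplies the substrate, 6 of 8 genes fell, against 34.2% of all tested genes. After scaling 0 of these 8 fell, against 15.0%. ASB1, an anthranilate synthase subunit, was at 37.9, 30.9, 26.1 and 29.8 TPM in the moderate and 16.6, 15.7, 16.01 and 20.8 TPM in the high humidity libraries (log2 difference -0.81 with an SE of 0.22, limma adjusted p = 0.0096). The 3 next by adjusted p were ASA2, another anthranilate synthase subunit (log2 difference -0.37), IGPS, indole-3-glycerol phosphate synthase (-0.77), and PAT1, anthranilate phosphoribosyltransferase (-0.48).

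Of the 8 tested camalexin pathway genes outside the family, 1 fell between high and moderate humidity, GSTU4, a glutathione S-transferase (log2 difference -0.75 with an SE of 0.26, limma adjusted p = 0.029), and 0 did after scaling. Over all tested genes 34.2% fell as deposited and 15.0% after scaling. CYP79B2 was at 24.02, 62.3, 17.97 and 82.8 TPM in the low, 72.8, 25.4, 37.5 and 30.1 TPM in the moderate and 32.9, 19.5, 25.6 and 26.5 TPM in the high humidity libraries. CYP79B3 was at 40.7, 109, 29.2 and 171 TPM in the low, 135, 44.8, 68.8 and 54.3 TPM in the moderate and 50.6, 30.7, 39.1 and 37.8 TPM in the high humidity libraries. The libraries of the 3 conditions overlapped in both genes, and neither passed between high and moderate humidity (log2 differences -0.55 and -0.81, limma adjusted p = 0.37 and 0.24). Both were at or above 17.97 TPM in every library, while CYP71A12, CYP71A13 and CYP71B15, which act after them, did not exceed 2.22 TPM in any.

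Among 12 tested regulators 2 rose and 1 fell, where 11.4% of all tested genes rose and 34.2% fell. MYB34, a factor of indole glucosinolate synthesis, was at 49.1, 28.1, 43.02 and 35.8 TPM in the moderate, 29.4, 48.6, 26.5 and 72.96 TPM in the low and 7.25, 9.01, 8.63 and 8.63 TPM in the high humidity libraries. Its high humidity libraries were all below the rest (log2 difference -2.07 with an SE of 0.28, limma adjusted p = 1.5e-04, and adjusted p = 7.5e-04 after scaling). CPK5, a calcium-dependent kinase that acts on WRKY33, rose from 40.4, 48.8, 36.6 and 47.02 to 102, 79.5, 82.2 and 83.5 TPM (log2 difference 0.99 with an SE of 0.16, limma adjusted p = 3.3e-04), and its relative CPK6 rose as well (log2 difference 0.72, limma adjusted p = 0.0029). WRKY33 itself did not pass, at 19.1, 13.8, 10.04 and 23.5 TPM in the high humidity libraries (log2 difference -0.20, limma adjusted p = 0.78). In the indole glucosinolate branch 1 of 9 fell, the glucosyltransferase UGT74B1 (log2 difference -0.86, limma adjusted p = 0.0073), which lost its call after scaling (adjusted p = 0.061). Of the 2 P450 reductases and the 2 cyanide detoxification genes 0 passed, where 45.6% of all tested genes did. The 4 genes that rose after scaling were CPK5, CPK6, the MAP kinase kinase MKK4 and the P450 reductase ATR2, and the 1 that fell was MYB34. MRN1 and CYP705A12, which with CYP71A16 belong to the marneral gene cluster, were also listed at 0 in all 12 libraries.

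Between high and low humidity 5 of the 41 pathway genes rose and 3 fell, where 12.4% of all tested genes rose and 11.3% fell. These counts moved with single libraries. Without low replicate 3, 4 rose and 10 fell, where 1877 of the 17368 tested genes rose and 1908 fell. Without low replicate 2, 4 rose and 1 fell, where 1816 of all genes rose and 1592 fell. Without high replicate 1 or 3, 3 rose and 1 fell. Over all genes 1798 rose and 1426 fell without high replicate 1, and 1877 rose and 1473 fell without high replicate 3. Those that rose were CPK5 (log2 difference 1.20), CPK6 (0.87), MKK4 (0.62), the camalexin exporter ABCG34 (0.55) and ATR2 (0.42). Those that fell were MYB34 (log2 difference -2.16), ASB1 (-0.71) and TSB1 (-0.60), a tryptophan synthase subunit. After scaling 6 rose and 2 fell, where 15.0% of all tested genes rose and 11.6% fell. TSB1 lost its call under scaling (limma adjusted p = 0.081), and ASB1 passed narrowly (limma adjusted p = 0.044). Between low and moderate humidity 0 of 41 passed in limma, where 0.674% of all tested genes passed. An unadjusted p under 0.05 was found in 5 of 41, as in 5077 of the 17368 tested genes. Without low replicate 1, 6 passed, all lower, where 32.3% of all tested genes passed, 30.0% as lower.

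**Figure D4:**
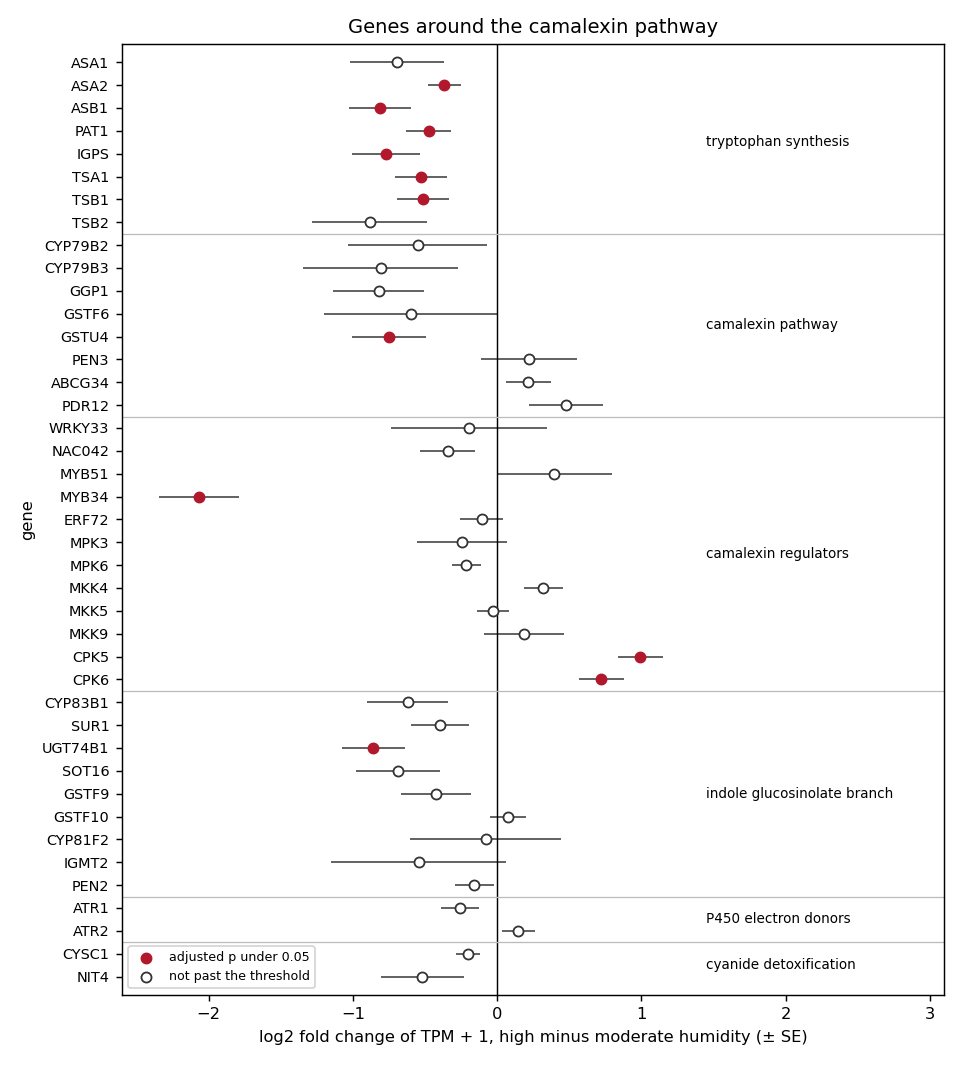
Difference in mean log2(TPM + 1) between high and moderate humidity (horizontal axis, log2 units, with its standard error) for the tested genes of the pathway lists (vertical axis, grouped by list), with filled points past an adjusted p of 0.05. MYB34 lies farthest to the left at -2.07 and CPK5 farthest to the right among called genes at 0.99.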

How the data were processed

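The authors deposited 1 table of TPM values per gene for the 12 libraries, in columns that sum to 998920 to 999399 although they are headed as raw counts. Reads had been processed with fastp, HISAT2, RSEM and TAIR10, per the submitters' processing notes, which give no versions. No read depth is stated, so no counting interval can be set. The authors' 3 columns of means were not used.

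Genes at 1 TPM or more in at least 4 libraries were tested on log2(TPM + 1), where the pseudocount of 1 understates the change of low genes. The fit was limma 3.58.1 in R 4.3.3, with 1 mean per condition over all 12 libraries, 9 residual degrees of freedom, eBayes with trend and robust moderation, and Benjamini-Hochberg adjusted p of 0.05. It was also run on simulated data with independent noise and few changed genes. That setting differs from these data, so the run does not bear on the calls. Alternatives were pseudocounts of 0.1 and 0.5, other filters, median-of-ratios scaling, no trend and robust terms, only the libraries compared, a replicate block and each library left out. Leaving out low replicate 1 and moderate replicate 2 together, and scaling without low replicate 1, were chosen after seeing the data. Same-numbered libraries did not consistently deviate together (correlations from -0.319 to 0.241, 4 of 12 over 0.1), so numbers were not used as pairs. Replicate 3 was positive in all comparisons, at 0.102, 0.151 and 0.225.

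Members and pathway lists were chosen with earlier results of these data known. Members named were up to 10 rises and 10 falls per comparison, 7 members with a described role or homology to one and the 5 of highest mean TPM, and in each pathway list up to 4 called genes with WRKY33, CYP79B2 and CYP79B3. Sequences and positions were read from the RefSeq TAIR10.1 assembly and aligned end to end with Biopython 1.88. The deposited table holds no coordinates.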

Additional observations from a re-analysis of the deposited data

Results flagged for a closer look

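In 8 of 72 groups of 4 libraries, a tested member had its highest or lowest library farther from the nearest other than Dixon's 95% critical value allows as a share of the group's range. Chance gives about 1 in 20 groups where groups are independent. These groups share the same 12 libraries, so the count of 8 cannot be set against that rate. At low humidity these were all replicate 1, in 4 members. CYP71B3 was at 5.69 TPM there, against 1.62 to 2.19 TPM in the other low libraries, CYP71B12 was at 46.0 TPM, against 25.0 to 28.1 TPM, CYP71B24 was at 34.0 TPM, against 16.8 to 19.4 TPM, and CYP71B20 was at 25.2 TPM, against 16.5 to 17.9 TPM. At moderate humidity replicate 2 stood high for CYP71B24, at 38.1 TPM against 22.6 to 23.8 TPM. Replicate 1 stood high for CYP71B19, at 1.35 TPM against 0.86 to 0.94 TPM, and low for CYP71B5, at 15.1 TPM against 18.7 to 19.1 TPM. At high humidity replicate 2 stood high for CYP71B2, at 71.8 TPM against 54.5 to 57.5 TPM. What set these libraries apart was not tested.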

How the results depend on the processing

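Of 30 changes of members called between high humidity and another condition, 24 kept their call under every alternative run and 0 changed direction. The other 6 were CYP71B19, CYP71B20 and CYP71B35 against moderate and CYP71B7, CYP71B24 and CYP71B34 against low humidity. Members called numbered 15 to 19 (high against moderate) and 10 to 13 (high against low) with each library left out, against 17 and 13. Over all 17368 tested genes the same omissions gave 6386 to 8969 and 3224 to 4277, against 7919 and 4121. Between low and moderate humidity members called numbered 0 to 12 on leaving out each library (12 without low replicate 1). They numbered 9 without low replicate 1 and moderate replicate 2, and 1 with scaling and no low replicate 1. Over all genes that comparison gave 117, then 59 with no filter, 44 with only those libraries, 4201 with both libraries out and 20 to 5605 with each left out in turn, the highest without low replicate 1. Every other single omission lowered that count, by over 1.5 times without low replicate 2, 3 or 4, moderate replicate 1, 3 or 4, or high replicate 3 or 4. Pathway genes called between high and moderate humidity numbered 11, then 5 after scaling, 21 with only those libraries and 7 to 15 with each left out, the lowest without moderate replicate 1. Between low and moderate humidity they numbered 0, then 0 to 6 with each left out (6 without low replicate 1) and 5 with both out. Between high and low humidity they numbered 8, then 4 to 14 with each left out (4 without high replicate 1 or 3, 5 without low replicate 2, 14 without low replicate 3). The cause of these shifts was not tested. With the replicate number as a block, although only 3 of 12 same-numbered comparisons correlated best with their own number, 17, 0 and 12 members were called (high against moderate, low against moderate, high against low), and over all genes 7062, 26 and 3714. Read depth is unknown, so values near 0 TPM set no limit on expression.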
